A study of Mus musculus with 11 samples.

Results

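The replication-dependent histone genes encode the core histones H2A, H2B, H3 and H4, around which newly copied DNA is wrapped. Members were the protein-coding genes of the RefSeq mouse annotation whose symbol starts with Hist1h to Hist4h, or with H2ac, H2bc, H3c or H4c and a number. The rule found 57 of 21887 protein-coding genes: 17 of H2A, 16 of H2B, 12 of H3 and 12 of H4. The annotation uses the newer symbols, so 10 genes that carry an older histone cluster symbol only as a synonym, among them the linker histone genes H1f1 to H1f6, are not members.

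The study used ATAC-seq, which maps open chromatin by where a transposase can cut, on alveolar macrophages, the resident macrophages of the airspaces, sorted from C57BL/6 mouse lungs. The groups were naive mice (4 samples), and mice 15 days (4 samples) and 30 days (3 samples) after KP or KP-GFP tumour cells had been injected into the tail vein. A single peak list stands for each group, so values carry no replicate error and the groups could not be tested against each other. The sources used here give no ages and do not say whether samples came from separate animals.

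Replication-dependent histone genes are transcribed mainly in S phase, when DNA is copied, and their transcripts end in a stem-loop in place of a poly(A) tail. They lie in dense clusters, often as H2A and H2B genes that face away from each other across a shared promoter. Npat, the factor that couples these genes to the cell cycle, gathers on them in nuclear histone locus bodies. Alveolar macrophages are known to maintain themselves in the lung by local division.

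The members formed 5 clusters, taken as runs with gaps of at most 100 kb (mm10 coordinates). On chromosome 3, 10 members spanned 96219885 to 96270192. On chromosome 13, 16 members spanned 21715711 to 21833475, 5 spanned 22035122 to 22043658 and 24 spanned 23531044 to 23762386. The last cluster, at 23933725 to 23934913, was the pair H2bc1 and H2ac1, with the older names Th2b and Th2a, which encode testis histones. The genes are short: their median length was 487 bp, and 52 of the 57 were no longer than 1000 bp.

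Peaks numbered 14731 in naive macrophages, 10861 at day 15 and 3352 at day 30. The genome-wide background behind the peaks, used here as the measure of depth, was 2.38 times the naive one at day 15 and 2.1 times at day 30, while the lists were shorter. Among 10 alveolar macrophage markers, a peak within 1000 bp of a gene end was found for 5 in naive macrophages, for 2 at day 15 and for 1, Cd68, at day 30, and Siglecf, Marco, Fabp4, Chil3 and Car4 had none in any list. Of 5 T cell markers Cd3d had one in the naive and day 15 lists and Cd3e, Cd3g, Lck and Zap70 had none. Of 5 neutrophil markers S100a8 had one in all 3 lists and S100a9, Ly6g, Csf3r and Mmp9 had none. None of the 5 B cell, 6 epithelial or tumour cell, 4 endothelial and 4 fibroblast markers had one in any list. The part of depth, and of other cells, in the histone results was not tested.

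Promoters at 5 of the 7 histone regions with a peak in all 3 lists are shown first, since these regions are the ones that remained at day 30. Sequences are from RefSeq (GRCm38.p6, the mm10 build), 5′ to 3′ up to the base before the transcription start, and end where a neighbouring gene begins. Capitals mark 4 motifs, searched on both strands. The TATA box was searched as TATAAA, and the second motif as the letters CCAAT. The octamer was searched as ATTTGCAT, and the GC box as GGGCGG. None of the motifs contains another, and neighbouring matches may run together.
H2ac6, to the edge of H2bc4 (chr13:23683960-23684198, minus strand): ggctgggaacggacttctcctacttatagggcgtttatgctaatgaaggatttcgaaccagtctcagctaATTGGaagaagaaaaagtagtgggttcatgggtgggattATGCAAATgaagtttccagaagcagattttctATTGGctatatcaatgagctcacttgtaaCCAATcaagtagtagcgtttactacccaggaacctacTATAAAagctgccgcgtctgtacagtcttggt
H2ac8, to the edge of H2bc8 (chr13:23571221-23571399, minus strand): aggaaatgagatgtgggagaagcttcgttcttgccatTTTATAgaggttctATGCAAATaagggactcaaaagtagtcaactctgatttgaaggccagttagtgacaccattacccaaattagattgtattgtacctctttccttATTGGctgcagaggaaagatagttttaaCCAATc
H2ac13, to the edge of H2bc13 (chr13:21716184-21716411, plus strand): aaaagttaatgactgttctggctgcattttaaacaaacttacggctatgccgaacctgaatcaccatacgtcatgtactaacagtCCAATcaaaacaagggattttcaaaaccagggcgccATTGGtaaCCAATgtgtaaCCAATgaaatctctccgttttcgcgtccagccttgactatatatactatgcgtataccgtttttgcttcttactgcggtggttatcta
H2ac11, to the edge of H2bc11 (chr13:22042950-22043197, minus strand): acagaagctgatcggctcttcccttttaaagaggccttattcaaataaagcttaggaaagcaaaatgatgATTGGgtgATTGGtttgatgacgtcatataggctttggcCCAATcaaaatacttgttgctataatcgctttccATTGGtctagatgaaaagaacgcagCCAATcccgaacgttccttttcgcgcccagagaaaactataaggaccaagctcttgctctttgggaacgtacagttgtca
H3c6 (chr13:23562386-23562635, minus strand): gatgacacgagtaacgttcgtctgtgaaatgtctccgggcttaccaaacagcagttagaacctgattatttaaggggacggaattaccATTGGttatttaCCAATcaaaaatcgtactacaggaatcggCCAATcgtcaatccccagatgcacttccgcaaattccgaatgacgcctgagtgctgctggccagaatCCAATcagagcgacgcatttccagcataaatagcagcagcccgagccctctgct

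The same stretch is given for H2ac22, whose naive peak had the highest −log10 p at any member and which had none at day 30, and for H4c6 and H4c9, which had a peak in the naive list and none in either tumour list.
H2ac22, to the edge of H2bc22 (chr13:21787249-21787482, minus strand): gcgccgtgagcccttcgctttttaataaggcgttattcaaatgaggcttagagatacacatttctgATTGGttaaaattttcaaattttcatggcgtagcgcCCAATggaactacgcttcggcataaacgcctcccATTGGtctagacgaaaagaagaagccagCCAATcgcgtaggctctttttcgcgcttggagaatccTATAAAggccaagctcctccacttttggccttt
H4c6 (chr13:23551669-23551918, minus strand): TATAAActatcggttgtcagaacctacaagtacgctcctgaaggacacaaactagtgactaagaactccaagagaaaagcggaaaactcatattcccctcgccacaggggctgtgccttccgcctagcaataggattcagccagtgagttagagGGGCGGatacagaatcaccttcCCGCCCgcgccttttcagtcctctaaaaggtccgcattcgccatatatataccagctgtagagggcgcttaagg
H4c9 (chr13:22041363-22041612, minus strand): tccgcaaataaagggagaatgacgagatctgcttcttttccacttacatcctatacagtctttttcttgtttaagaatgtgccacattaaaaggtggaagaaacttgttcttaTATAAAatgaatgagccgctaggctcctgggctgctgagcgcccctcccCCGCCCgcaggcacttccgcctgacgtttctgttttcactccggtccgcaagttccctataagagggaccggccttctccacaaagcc

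Promoter windows of 300 bp were found for 52 of the 57 members, 53 windows in all; H2bc21, H2bc4, H3c1, H3c7 and H4c14 had none in the table. A CCAAT box was present in all 17 H2A, all 15 H2B and all 10 H3 windows and in 3 of 11 H4 windows, against 37.4% of the 32851 promoters of the table. The letters of the TATA box, at any place in the window and on either strand, were present in 30 of the 53, against 13.6% of all promoters. Windows of neighbouring genes can cover the same DNA, so the same match can count for both. The octamer, a known element of H2B promoters, was present in 7 of 15 H2B windows and in 6 of 17 H2A windows, which partly cover the same DNA, and in none of the H3 or H4 windows, where 1.74% of all promoters held it. A GC box was present in 8 of 11 H4 and 7 of 17 H2A windows, and in 2 of 15 H2B and 2 of 10 H3 windows, against 35.7% of all. Median GC content was 44% in H2A, 41.7% in H2B, 41.3% in H3 and 48.3% in H4 windows, against 61.3% for promoters of all genes with a naive peak at a gene end and 52.7% for the whole table. All 11 windows of members with a day 30 peak held a CCAAT box, as did 20 of the 23 of members with naive and day 15 peaks only, 2 of the 4 of members with a naive peak and none at day 15, and 12 of the 15 of members without a peak. Every window without a CCAAT box was that of an H4 gene, so these counts only reflect how many such H4 windows each class holds. A match describes letters in a window and not binding.

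Most histone genes had an accessible region in naive macrophages, nearly all of these were still called at day 15, and about 1 in 3 were still called at day 30. A boundary peak is one that comes within 1000 bp of a gene's start or end. Among the 57 members, 42 had one in naive mice, 38 at day 15 and 13 at day 30, or 73.7%, 66.7% and 22.8%. Over all protein-coding genes the shares were 34.7%, 29.6% and 12.8%. All 38 day 15 genes and all 13 day 30 genes also had a naive boundary peak, and the 13 day 30 genes all had one at day 15. None of the 15 members without a naive peak gained one at day 15 or day 30, where 3.04% and 0.245% of all such genes did. Among the strongest 3352 peaks of every list, so that lists were of equal length, 15 members had a naive boundary peak, 18 had one at day 15 and 13 at day 30. The same restriction gave 12.8% of all protein-coding genes for naive macrophages, 13% for day 15 and 12.8% for day 30.

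Peaks at histone genes are shared by neighbours, and with each counted once there were 29 naive, 27 day 15 and 7 day 30 peaks. Of the 29 naive peaks 16 served 2 members and 1 served 3, and of the 7 day 30 peaks 6 served 2. A peak with at least 1 bp in common at day 15 was present for 25 of the 29, or 86.2% (95% Wilson interval 69.4 to 94.5), where 75.1% of all 7052 naive boundary peaks had one. At day 30 it was 7 of 29, or 24.1% (12.2 to 42.1), where 32.8% of all did. From day 15 to day 30, 7 of 27 were kept, or 25.9% (13.2 to 44.7), against 39.1% of all. In the other direction, 25 of the 27 day 15 peaks and all 7 day 30 peaks overlapped a naive peak, where 91.2% and 97.8% of all boundary peaks did. These intervals cover counting error over peaks only.

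**Figure D1:**
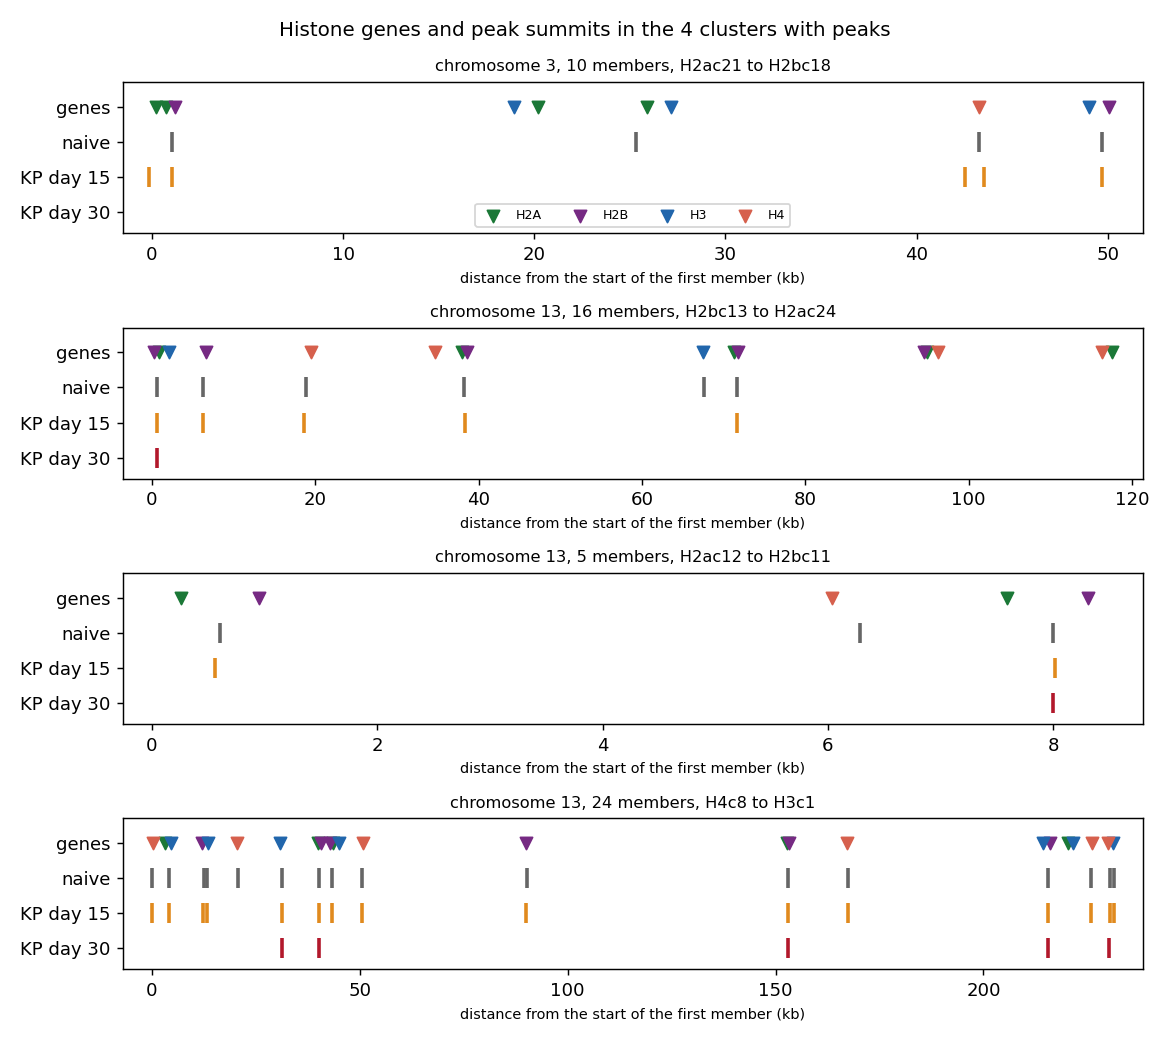
Position of the histone genes (triangles, coloured by family; genes over 2000 bp are drawn at their start where the strand is known) and of the peak summits of each list (bars), in kb from the start of the first member, for the 4 clusters with peaks. The day 30 row has 7 summits, none of them on chromosome 3.

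Several of the members without a peak lay together. In the chromosome 13 cluster from H2bc13 to H2ac24, the last 5 members, H2bc23, H2ac23, H4c17, H4c18 and H2ac24, had no peak in any list. The nearest naive peak was 18812 bp from an end of H2bc23 and 45424 bp from an end of H2ac24. On chromosome 3, H3c15, H2ac19 and H3c14, which surround H2ac18, had none, and the testis pair H2bc1 and H2ac1 had their nearest naive peak 134013 bp from H2bc1. The cluster from H4c8 to H3c1 held 21 members with a naive peak of 24, and 9 of the 13 with a day 30 peak. On chromosome 3, 7 of 10 members had a naive peak, 6 a day 15 peak and 0 a day 30 peak. At the rates of all genes of equal naive −log10 p, 1.71 of these 7 and 6.86 of the 21 would have a day 30 peak. The 9 non-histone genes that lie among the clusters, with neighbouring clusters on chromosome 13 joined (H2bc13 to H2bc11 and H4c8 to H2ac1), had no boundary peak in any list; one of them is Hfe, which regulates iron uptake.

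The members without a peak often had promoters whose sequence occurs more than once. Each promoter window was cut into words of 36 bases, and a word was called repeated when it occurred at another position among all promoters of the table. Of the 15 members without a peak, 9 had repeated words, and in 8 they made up over 50% of the window: 100% at H2bc23, 94.3% at H4c17 and at H4c18, 89.4% at H2ac23, 80.8% at H3c14 and at H3c15, 74.7% at H2ac24 and 69.4% at H2ac19. Of the 38 windows of members with a naive peak 4 had any, and in 1 of these, H2ac18 at 69.4%, they made up over 50%. Of the 11 windows with a day 30 peak 0 had any. Windows that are copies of each other are counted separately, and the share of all promoters with repeated words is not given. The other 6 members without a peak, H3c10, H3c4, H2ac4, H3c2, H2bc1 and H2ac1, had no repeated word. The sources used here give neither the read length nor the treatment of reads that match several places, and the part of repeated sequence in the absence of peaks was not tested.

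H2ac18 and H2ac19, which lie on opposite strands, show what such copies look like. Their 300 bp windows share an identical run of 219 bases. H2ac18 had a naive peak of 10 tags that spans its printed stretch, with the summit outside the window at -313 bp from the start, and H2ac19 had none.
H2ac18 (chr3:96245247-96245496, plus strand): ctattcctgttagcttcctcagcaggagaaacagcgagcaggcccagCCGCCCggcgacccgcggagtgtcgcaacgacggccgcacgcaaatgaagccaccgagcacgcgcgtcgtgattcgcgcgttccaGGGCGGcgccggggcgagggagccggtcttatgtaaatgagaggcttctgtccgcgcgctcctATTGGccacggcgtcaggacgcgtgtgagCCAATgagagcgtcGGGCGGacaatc
H2ac19 (chr3:96240375-96240624, minus strand): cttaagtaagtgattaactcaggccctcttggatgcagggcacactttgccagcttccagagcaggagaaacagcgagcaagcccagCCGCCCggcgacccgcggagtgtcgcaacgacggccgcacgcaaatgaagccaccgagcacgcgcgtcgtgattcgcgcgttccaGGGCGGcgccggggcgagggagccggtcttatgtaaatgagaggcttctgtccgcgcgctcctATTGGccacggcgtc

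**Figure D2:**
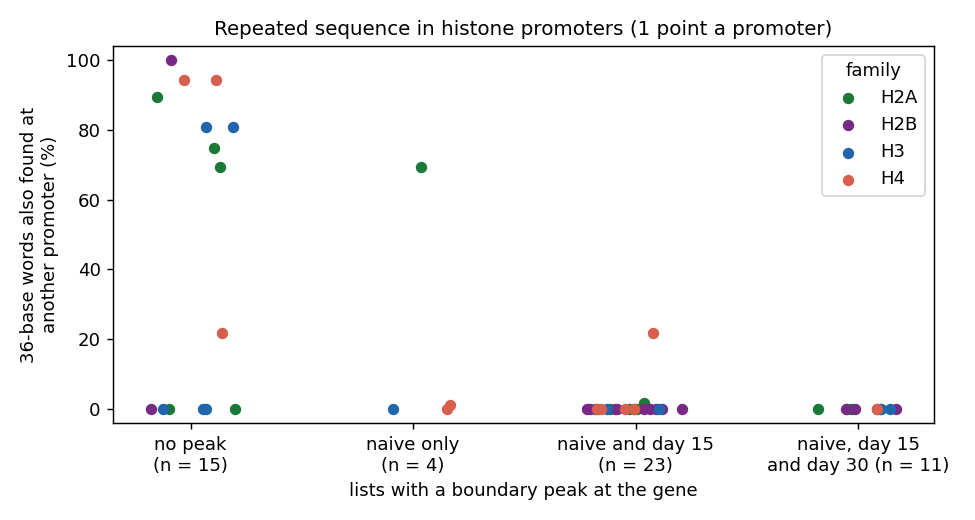
Share of the 36-base words of each histone promoter window that also occur at another promoter (percent), by the lists in which the gene had a boundary peak; 1 point a window, coloured by family and spread sideways for legibility. In the column without a peak 8 of 15 windows lie above 50%, and in the column of all 3 lists every window lies at 0.

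The members just inside and just outside the distance limit were few. H2ac10 had its nearest naive peak 763 bp away, inside the limit, and H3c10, H3c14 and H3c4 had theirs 1106, 1148 and 1312 bp away, outside it. The peak counted for H2ac10 lies at H3c8, that counted for H3c3 at H2bc3 and that counted for H3c13 at H2bc18. The region counted for H2bc6 was also within the limit of H1f4, which is not a member. A further start of H2bc6, whose promoter window was counted with the others, lies 35070 bp from the naive peak.

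For most members the nearest summit lay just upstream of the transcription start. For 37 members with a naive peak and a known start, the nearest summit was upstream of the start in 30, at a median of -84 bp (quartiles -144 and -36), and within 250 bp of it in 31. At day 15 the median was -93 bp over 33 members, and at day 30 it was -126 bp over 11. Among members with a known strand, 9 neighbouring pairs faced apart with at most 1000 bp between them. All 9 joined an H2A and an H2B gene, with gaps of 163 to 280 bp; pairs farther apart, such as H3c3 and H2bc3, and members without a strand were not counted. The gap of 7 pairs held a naive peak, that of 7 a day 15 peak and that of 3 a day 30 peak. Such a peak is counted above for both genes of its pair, and a summit within the gap is upstream of both. The 3 in all lists were H2bc13/H2ac13, H2ac11/H2bc11 and H2ac8/H2bc8, and the 2 with none in any list were H2bc23/H2ac23 and the testis pair H2bc1/H2ac1.

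**Figure D3:**
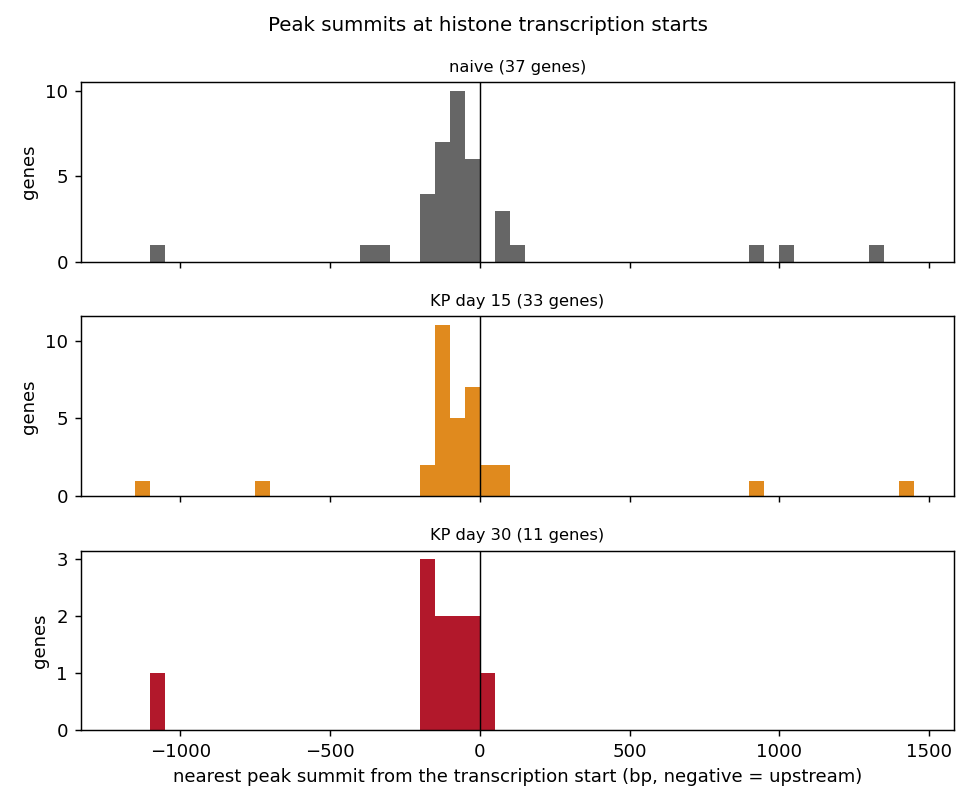
Distance of the nearest peak summit from the transcription start of each histone gene with a known strand (bp, negative is upstream), in bins of 50 bp, for the naive, day 15 and day 30 lists. Most summits lie within 250 bp of the start in all 3 lists, with medians of -84, -93 and -126 bp.

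By naive −log10 p, the 6 strongest regions were 4 H2A and H2B pairs, H3c6 and H4c3, all on chromosome 13. Values are summit pileups, the number of tags at the summit as recovered from the authors' fold and p, and the ratio of the pileup to the genome-wide background of its list, which takes depth into account. The pair H2ac22/H2bc22 (naive peak 21787187 to 21787600, −log10 p of 26.5) had 30 naive tags and 31 at day 15, ratios of 38.2 and 16.6, and no peak at day 30. The pair H2ac8/H2bc8 (23571087 to 23571524, 26.0) had 36 naive tags, 34 at day 15 and 14 at day 30, ratios of 45.9, 18.2 and 8.51. H3c6 (23562237 to 23562663, 25.0) had 26 naive tags, 35 at day 15 and 18 at day 30, and ratios of 33.1, 18.7 and 10.9. In raw tags H3c6 was thus highest at day 15, and relative to depth it was highest in the naive list.

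H2ac6/H2bc4 (23683817 to 23684373, 23.7) had 31 naive tags, 38 at day 15 and 21 at day 30, with ratios of 39.5, 20.3 and 12.8. Its day 30 peak had the highest −log10 p at any member, 14.7, and a rank of 484 among the 3352 peaks of that list. The pair H2ac12/H2bc12 (22035566 to 22035903, 21.8) and the gene H4c3 (23698222 to 23698684, 20.2) each had 23 naive tags and 23 at day 15, ratios of 29.3 and 12.3, and no peak at day 30. The same tags over 2.38 times the background thus gave a lower ratio at both.

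The other day 30 regions had weaker naive peaks. The region at H3c3/H2bc3 (23746117 to 23746778) had 26 naive tags, 37 at day 15 and 15 at day 30, and ratios of 33.1, 19.8 and 9.12. H2bc13/H2ac13 (21716192 to 21716522) had 19 naive tags, 19 at day 15 and 13 at day 30, and H2ac11/H2bc11 (22042933 to 22043315) had 18, 28 and 17 in the same order. The region between H4c1 and H3c1 had 13, 27 and 16 tags, with a naive −log10 p of 6.42 that ranked 14025 of 14731. By −log10 p it was the weakest naive peak at a member that was still called at day 30, and all 7 day 30 regions had their lowest ratio in that list.

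Regions with naive and day 15 peaks only ranged from 8 naive tags at H4c11 to 30 at H2ac22/H2bc22. Regions called in the naive list and at neither tumour time were H4c6 (15 tags, −log10 p of 10.9), H4c9 (14 tags, 8.08), H2ac18 (10 tags, 6.93) and H3c11 (13 tags, 6.54). The peak at H4c9 (chromosome 13: 22041054 to 22041494) was also counted for H2ac11, which had a further peak in every list. All 4 lay below the median naive −log10 p of 12.1 of histone peaks.

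The day 15 list held 2 histone peaks that the naive list lacked. One spanned 96219660 to 96219860 on chromosome 3 and had 23 tags, with the authors' fold at 5.50. Measured from the start of H2ac21, its summit was at -150 bp. The naive peak counted for H2ac21 lay at H2ac20 and H2bc21 (96220758 to 96221093, 20 tags), 1049 bp from the start of H2ac21 by its summit. The other lay at 96262310 to 96262509 near H4c14, with 17 tags, beside a region of H4c14 that was in both lists with 16 tags at day 15 against 10 in the naive list. Scaled to the naive depth they had 9.65 tags at H2ac21 and 7.13 at H4c14, where the weakest naive histone peak had 8. Neither region had a day 30 peak.

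**Figure D4:**
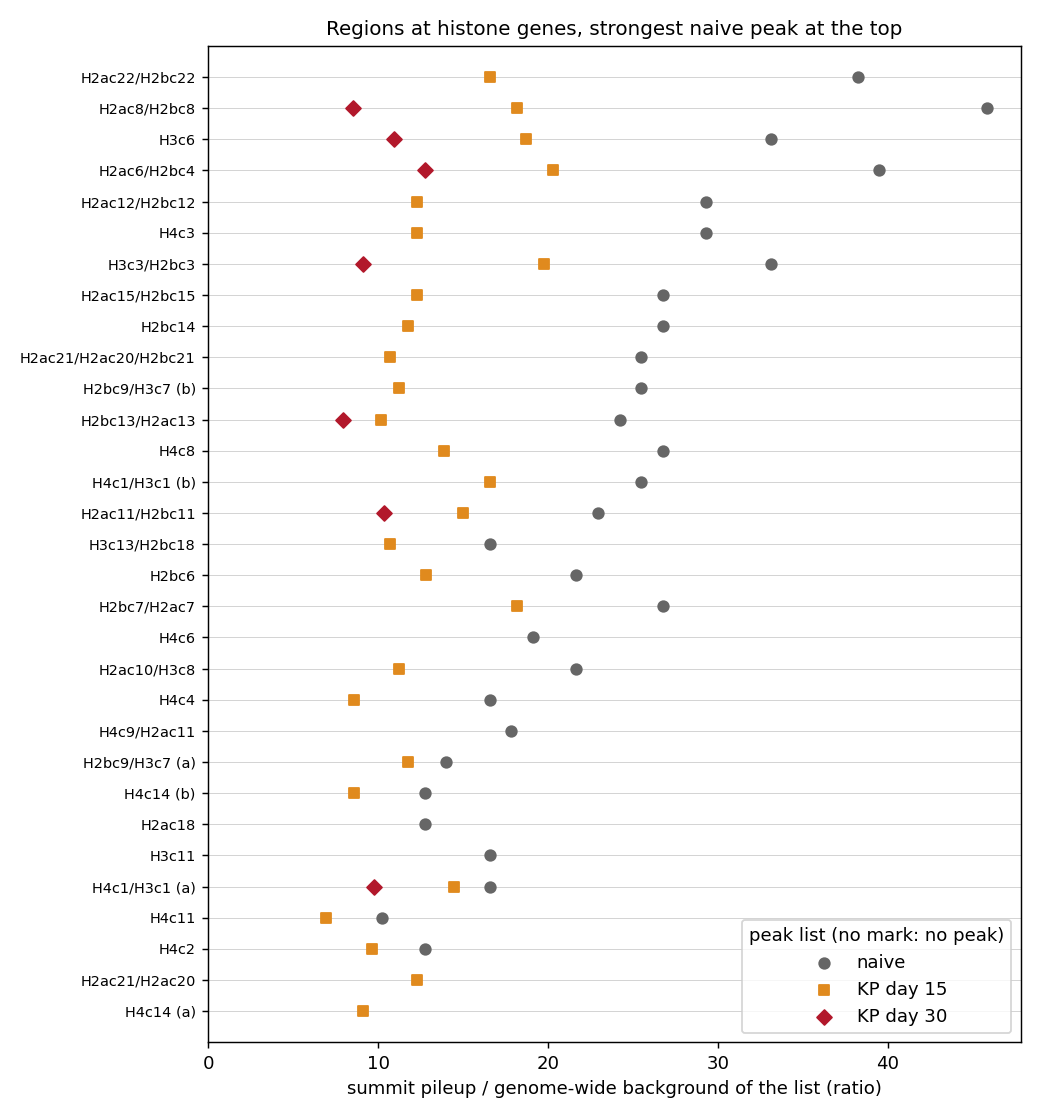
Summit pileup over the genome-wide background of the list (ratio) for each of the 31 regions at histone genes, named by the members whose ends lie within 1000 bp, in the naive, day 15 and day 30 lists; a missing mark means no peak, and (a) and (b) tell apart regions of the same genes. In every region with marks of several lists the naive mark lies farthest right, and the highest values are 45.9 naive, 20.3 at day 15 and 12.8 at day 30.

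In unscaled tags, day 15 was higher than naive in 20 of the 25 naive histone peaks overlapped at day 15, equal in 4 and lower in 1, and day 30 was higher in 1 of 7 and lower in 6. Among other boundary peaks, day 15 was higher in 2814 of 5269 and day 30 in 185 of 2309. Depth is known only from the recovered background. Scaled by it, all 25 histone peaks at day 15 and all 7 at day 30 were below their naive value. Over the 25, the ratio of the depth-scaled day 15 pileup to the naive one had a median of 0.519 and ran from 0.396 to 0.871. Over the other 5269 such peaks the median was 0.441, with quartiles of 0.365 and 0.536, and 23 lay above 1. At day 30 the median over the 7 histone peaks was 0.326 (0.186 to 0.587), and over 2309 others it was 0.290, with quartiles of 0.234 and 0.363. Of those others, 2 lay above 1. A peak that is called in both lists must pass the threshold in each, so these medians leave out the regions that were not called. Histone and other peaks were not matched here for naive strength. The median naive −log10 p was 12.1 over all naive histone peaks and 14.3 over other naive boundary peaks.

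Local background at histone peaks was close to that at other boundary peaks. Its naive median was 2.01 times the genome-wide value at histone peaks and 1.91 times at others. It exceeded 1.5 times in 27 of 29 naive histone peaks, or 93.1%, against 73.6% of others, while in the upper tail histone peaks were lower: 9 in 10 lay at or under 3.17 times, against 3.42 at others. The pair H2bc7/H2ac7 had the highest, 4.15 times, where the highest of the others was 11.8. At day 15 the medians were 1.57 at histone peaks and 1.42 at others, and at day 30 they were 1.19 and 1.31. Since the authors' fold and p are relative to this background, peaks of equal pileup score lower where it is high. The region at H2bc7/H2ac7 had 21 naive tags and a −log10 p of 11.1, whereas that at H2ac15/H2bc15 also had 21 tags and 19.5, at a background of 1.58 times.

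The 42 members with a naive peak were compared with genes of equal naive strength, in 10 bins of equal size by the naive −log10 p over all 7594 genes with a naive boundary peak. Of the 42, 38 were kept at day 15, or 90.5% (95% Wilson interval 77.9 to 96.2), against 79.6% of all genes, and 33.6 would be kept at the rates of their bins. At day 30, 13 were kept, or 31.0% (19.1 to 46.0), against 36.5% of all and 13.7 at the rates of their bins. From day 15 to day 30, 13 of 38 were kept, or 34.2%, against 42.1% of all. The share kept at day 30 moves with the threshold: it was 7 of 15 among the strongest 3352 peaks of each list, and 7 of 37 with a −log10 q of at least 5. The 36.5% of all genes belongs to the whole lists, and no share of all genes is given at these thresholds. The 42 ran from 5.69 to 26.5 in naive −log10 p, with a median of 16.6 against 15.2 for all, and none was in the strongest bin. With each peak counted once, 25 of 29 were kept at day 15 where the rates of their bins give 20.2, and 7 were kept at day 30 where they give 7.44. By bins of the day 15 −log10 p, 7 of 27 day 15 peaks were kept at day 30 where 10.6 are given. Neighbours share peaks, so the members are not independent, and no test was made.

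Numbered from the weakest, bins 4, 5 and 6 kept 2 of 5, 2 of 3 and 2 of 2 members at day 30, where 16.1%, 24.2% and 37.9% of all genes were kept. Bin 7 kept 2 of 11 members, against 43.1% of all genes, bin 8 kept 3 of 5, against 57.1%, and bin 9 kept 2 of 4, against 71.8%. Bins 1, 2 and 3 kept 0 of 5, 0 of 2 and 0 of 5 members, against 5%, 6.72% and 11.1%. The 2 kept members of bin 5 are H4c1 and H3c1, binned by a region (20 naive tags, −log10 p of 13.8) that had no day 30 peak; the region kept was the weaker one, with 6.42. Each count of 2 kept members here is a pair on 1 day 30 peak, so these counts rest on few peaks.

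**Figure D5:**
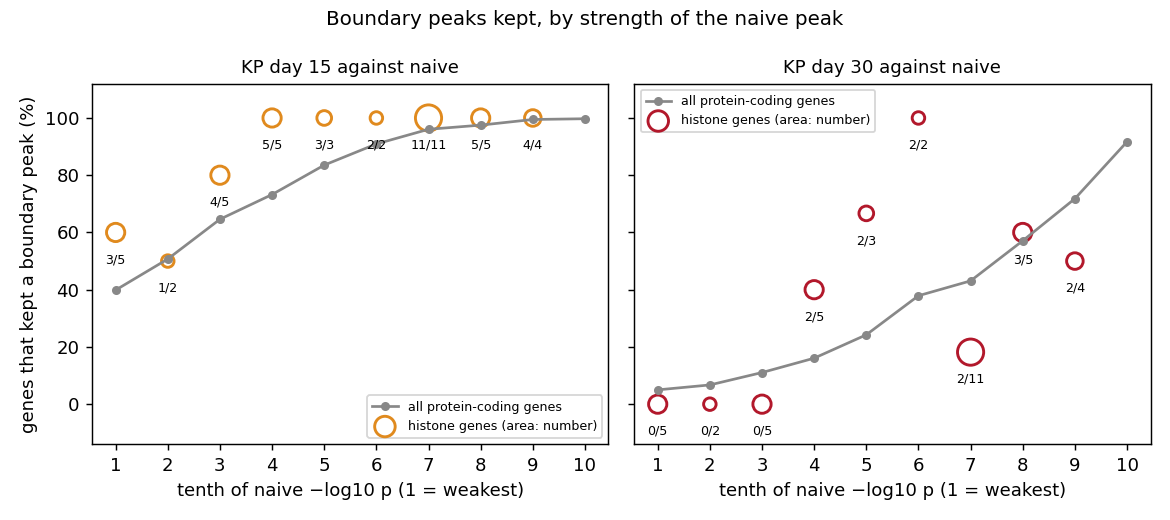
Share of genes that kept a boundary peak at day 15 (left) and day 30 (right), by bin of the naive −log10 p, for all protein-coding genes (line) and histone genes (circles, area by number, labelled kept over total). At day 15 the circles lie above the line in every bin with members except bin 2 (1 of 2 members, against 50.7%); at day 30 they lie on both sides of it.

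The families differed in how many members had a peak. Of 17 H2A genes 12 had a naive peak, 11 a day 15 peak and 4 a day 30 peak. The 16 H2B genes gave 14, 14 and 5, the 12 H3 genes 7, 6 and 3, and the 12 H4 genes 9, 7 and 1. The only H4 gene with a day 30 peak was H4c1. That peak covers the start of H4c1 and is also counted for H3c1, 470 bp away. The day 30 peak counted for H3c3 lies 959 bp away, at H2bc3. Of the 3 H3 genes, only H3c6 had a day 30 peak that reached the gene itself. The naive peaks of H4 genes were also the weakest, with a median −log10 p of 8.80 against 18.9 for H2B, 18.5 for H2A and 13.8 for H3. At day 15, 11 H2A, 14 H2B, 6 H3 and 7 H4 genes were kept, where the rates of their bins give 10.2, 12.5, 5.51 and 5.49. At day 30, 4 H2A, 5 H2B, 3 H3 and 1 H4 genes were kept, where they give 4.68, 5.70, 2.00 and 1.31.

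Other short genes rarely had a boundary peak. Of 1525 other protein-coding genes of at most 1000 bp, 34 had a naive one, 27 a day 15 one and 11 a day 30 one, or 2.23%, 1.77% and 0.721%. Of the 34, 25 were kept at day 15 and 10 at day 30. Among the 10 genes that carry a histone cluster symbol only as a synonym, 3 had a naive boundary peak, 2 a day 15 and 1 a day 30 one. These are 30%, 20% and 10%, near the 34.7%, 29.6% and 12.8% of all protein-coding genes.

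Related gene lists were counted the same way, beside the 79.6% of all genes that kept a naive boundary peak at day 15 and the 36.5% that kept one at day 30. Of 12 replication-independent histone genes, whose histones can be laid down outside S phase, 6 had a naive boundary peak, 6 had one at day 15 and 3 at day 30. H2ax, the variant that marks DNA breaks, and H2az1 and H2az2, which encode H2A.Z, had one in all 3 lists, and H3f3a, which encodes H3.3, H2aj and Cenpa, the histone of centromeres, had none at day 30.

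Of 23 genes of histone gene transcription and histone mRNA processing, 17 had a naive boundary peak, 16 had one at day 15 and 11 at day 30. Npat, its partner Casp8ap2 and Slbp, which binds the stem-loop of histone transcripts, had one in all 3 lists. Lsm10 and Lsm11, of the particle that cuts the transcripts, and Zfp473 and Yy1 had none at day 30, and E2f4, a cell cycle regulator, had none at either tumour time. Hinfp, which binds H4 promoters, Nfya and Nfyb, which bind CCAAT boxes, and Pou2f1, which binds the octamer, were among those in all 3. Nfyc and Pou2f2, of the same list, had none in any list. Their share kept at day 30, 11 of 17 or 64.7%, stands beside 36.5% of all genes and 31.0% of the histone genes themselves.

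Of 30 genes of S phase and DNA replication, 20 had a naive boundary peak, 21 had one at day 15 and 11 at day 30. Mcm4, of the replicative helicase, and Pcna, the replication clamp, were kept at both times. Gins1 and Rfc4 had one at day 15 only and Pola1 in the naive list only, while Mcm3, Mcm5, Mcm7 and Rrm1 had none at day 30. Of the 20, 19 were kept at day 15 and 11 at day 30, where 79.6% and 36.5% of all genes were. The naive strength of these lists was not matched to that of the histone genes.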

How the data were processed

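The data were 3 ATAC-seq peak lists, 1 each for 4 naive, 4 day 15 and 3 day 30 samples. The submitters' processing notes name the aligner Bowtie2 (2.3.4.1), the peak caller MACS2 (2.1.1) and the build mm10; settings, transposase shift, read filters and any pooling of samples are not stated there or in the labels. The deposited columns without headers were read, from their values, as a score, the fold over local background (a ratio), the −log10 p and the −log10 q of each peak, as the authors' caller gave them, and the summit position in bp.

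The fold was taken as the pileup plus 1 over the local background plus 1. The pileup was the whole number of tags whose Poisson tail over that background gave the deposited p, within 0.001 on the −log10 scale for every peak. Local backgrounds fell on steps of 0.02, and the commonest value off these steps was taken as the genome-wide background. Recovery and matching were tested on simulated data, and a gene end within 1000 bp of a peak counted. Genes came from RefSeq (GRCm38.p6), 21887 of them protein-coding and not mitochondrial. Python 3.11.15, pandas 2.3.3 and scipy 1.17.1 were used.

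The members, the gene lists, the motifs and the alternatives were chosen with earlier results of these data known. Named were the 6 strongest naive histone regions, up to 6 that were absent at day 15 or present at day 30 by naive −log10 p, and every histone peak absent from the naive list; further regions named beyond these, among them H4c1/H3c1, and the genes with repeated words were chosen after their values were seen. In the other lists up to 4 changed and 2 kept genes were named in list order. Slbp, E2f4, Hinfp, Nfya, Nfyb, Nfyc, Pou2f1, Pou2f2, H2az2, Gins1, Rfc4 and Pola1 were chosen after their values were seen. Files give no counts of reads, so depth is known only through the recovered background.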

Additional observations from a re-analysis of the deposited data

How the results depend on the processing

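With 1 list a group, no replicate could be left out. No paired analysis was possible because each group has a single peak list, with no value for its samples. Counting a peak only for the nearest gene, which gives a shared promoter to 1 gene of a pair, left 23 of 29 histone genes kept at day 15, 7 of 29 at day 30 and 7 of 26 from day 15 to day 30. With a −log10 q of at least 5, 7 of 37 genes and 4 of 22 peaks were kept at day 30, and from day 15 to day 30 it was 7 of 36 genes and 4 of 25 peaks. With lists of equal length, 13 of 15 genes and 7 of 9 peaks were kept at day 15, 7 of 15 genes and 4 of 9 peaks at day 30, and 10 of 18 genes and 5 of 10 peaks from day 15 to day 30. The share of peaks kept at day 30 was then 44.4%, against 24.1% with the whole lists. Shares of all genes and peaks under these settings are not given, so these counts describe the histone genes only. Windows of 500 or 2000 bp, a stricter overlap, and, chosen after seeing the data, adding the 10 genes of older histone symbols or leaving out members with repeated words together with the 5 that have no promoter window (31 of 33 genes kept at day 15 and 11 at day 30) kept every count within 1.5 times. The number kept at the rates of equal naive strength ran from 32.5 to 35.1 at day 15 and from 13.2 to 14.6 at day 30 over other bins and measures of strength, the pileup being chosen after seeing the data. The lowest summit at a histone peak had 8 naive tags, 13 at day 15 and 13 at day 30, and at other boundary peaks 6, 9 and 9.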
